A study of Mus musculus with 6 samples.

Results

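The genes described here are 10 targets of the transcription factor p53 that are known for growth arrest and related stress responses, namely Cdkn1a, Ccng1, Gadd45a, Sesn1, Sesn2, Zmat3, Phlda3, Trp53inp1, Aen and Eda2r. They were chosen by name, and each matched 1 of the 34245 genes in the deposited table. Expression was measured by RNA-seq in 3 independent peripheral T-cell lymphomas (PTCL) from lymph nodes of terminally sick Dnmt3b+/- mice of strain FVB. These mice carried 1 inactivated germline allele of Dnmt3b, a conventional knockout derived from a floxed allele, in every tissue. The age of the mice is not given in the sources used here. The samples were bulk tumor tissue, so fewer cells of a type and less RNA per cell cannot be told apart. The labels also list 2 Dnmt3b+/- PTCL and 1 Dnmt3a-/- PTCL with bisulfite sequencing, which were not analysed here. Control libraries were not analysed here. With 1 group of 3 tumors every value is a description, and no test between groups was possible.

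The transcription factor p53 is stabilised when DNA is damaged or an oncogene is active, and it then binds a pair of short palindromic motifs near its target genes. Its arrest targets stop the cell cycle through inhibition of cyclin-dependent kinases, lower growth signalling through mTOR and AKT, and tune p53 itself, while other targets lead to cell death. In mice, loss of p53 leads to T-cell lymphoma, and many lymphomas disable the pathway. No library with altered p53 was compared, so the dependence of these genes on p53 in the tumors was not tested.

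Because these genes share a regulator, the 300 bases around each transcription start in the RefSeq table of build GRCm38.p6, 250 before and 50 after it, were searched for the p53 consensus site, a motif of 20 bases that reads the same on both strands. The pair of short motifs in this site had to lie side by side, and pairs with bases between them were not searched. Of the 10 genes, 8 had an entry, and Zmat3 and Trp53inp1 had none. A site with at most 1 mismatch was found for 2 of the 8, Cdkn1a and Ccng1, and for 0.107% of all 27025 genes in the table. This limit on mismatches was set after the sequences had been seen, and with up to 3 mismatches the counts were 5 of 8 genes and 7.2% of all genes. Both promoters are shown because they hold the closest matches, with the site in capitals. The window of Cdkn1a is chr17:29090729-29091028 on the plus strand, at the upstream one of its 2 starts in the table, and the site begins 51 bases before that start. The window of Ccng1 is chr11:40755237-40755536 on the minus strand, and the site begins 195 bases before the start. These are reference sequences and were not read from the tumors. A match describes the letters only, and binding of p53 was not measured.
Cdkn1a: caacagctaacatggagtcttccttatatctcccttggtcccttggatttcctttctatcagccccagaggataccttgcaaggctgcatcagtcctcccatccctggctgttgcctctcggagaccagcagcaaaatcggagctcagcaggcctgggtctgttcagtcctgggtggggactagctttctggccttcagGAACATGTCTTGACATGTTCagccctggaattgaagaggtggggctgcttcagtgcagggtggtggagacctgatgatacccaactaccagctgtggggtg
Ccng1: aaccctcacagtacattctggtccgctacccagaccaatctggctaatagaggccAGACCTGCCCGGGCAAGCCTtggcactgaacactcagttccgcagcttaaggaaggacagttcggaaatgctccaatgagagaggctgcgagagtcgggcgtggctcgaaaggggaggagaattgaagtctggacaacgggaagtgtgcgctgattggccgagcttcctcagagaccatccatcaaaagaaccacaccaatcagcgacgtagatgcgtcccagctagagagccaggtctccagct

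Levels are in FPKM, a unit that divides the fragments of a gene by its exon length and by the reads of the library. Depths of 30726570, 18969988 and 20770928 reads were recovered for tumors 1, 2 and 3 from the values of genes without a read. Reads per gene followed from depth and exon length, and they give 95% intervals that cover counting error only. The tumors stood apart in their content of other cell types. The 6 pancreatic acinar markers, at least 2 of them without a read in tumor 3, summed to 77.7, 381 and 0.447 FPKM in tumors 1, 2 and 3, and the 6 fibroblast markers to 11.5, 42.7 and 0.367 FPKM. All 9 T-cell markers were above 0.2 FPKM in every tumor, against 36.7% of all 34199 gene symbols. The most abundant of them, Cd8b1, had 435, 166 and 443 FPKM. It was the only T-cell marker in the order of tumors 3, 1 and 2, and was highest in tumor 1 with FPKM rescaled to sum to 1000000. The 9 markers summed to 1315, 896 and 1282 FPKM in tumors 1, 2 and 3. Of the 9, 4 were highest in tumor 2, and 3 with median-of-ratios factors, against 39% of the 17005 genes with a mean of at least 0.1 FPKM as deposited, and 4 were lowest there, against 33.5%.

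Of the 10 p53 target genes, 9 were above 0.2 FPKM in every tumor, against 36.7% of all 34199 gene symbols. The exception was Eda2r, which passed this threshold in tumor 3 alone. Mean levels per exon length spanned from 0.128 to 36.8 FPKM. Ccng1 with 36.8 ± 14.8 FPKM and Trp53inp1 with 34.9 ± 8.60 FPKM (SD, n = 3 each) were the highest and ranked 794 and 843 by mean among all symbols. Aen, Sesn1, Cdkn1a, Zmat3, Phlda3 and Sesn2 followed with means between 2.94 and 7.47 FPKM. Gadd45a had 0.541 ± 0.161 FPKM and Eda2r 0.128 ± 0.159 FPKM (SD, n = 3 each). Of the 9 pairs of neighbours in this order, 3 had tumor values that did not overlap. Those were Trp53inp1 above Aen, Sesn2 above Gadd45a, and Gadd45a above Eda2r. The tumor values of the remaining neighbours overlapped, although Cdkn1a was above Zmat3, and Zmat3 above Phlda3, in each of the 3 tumors.

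**Figure D1:**
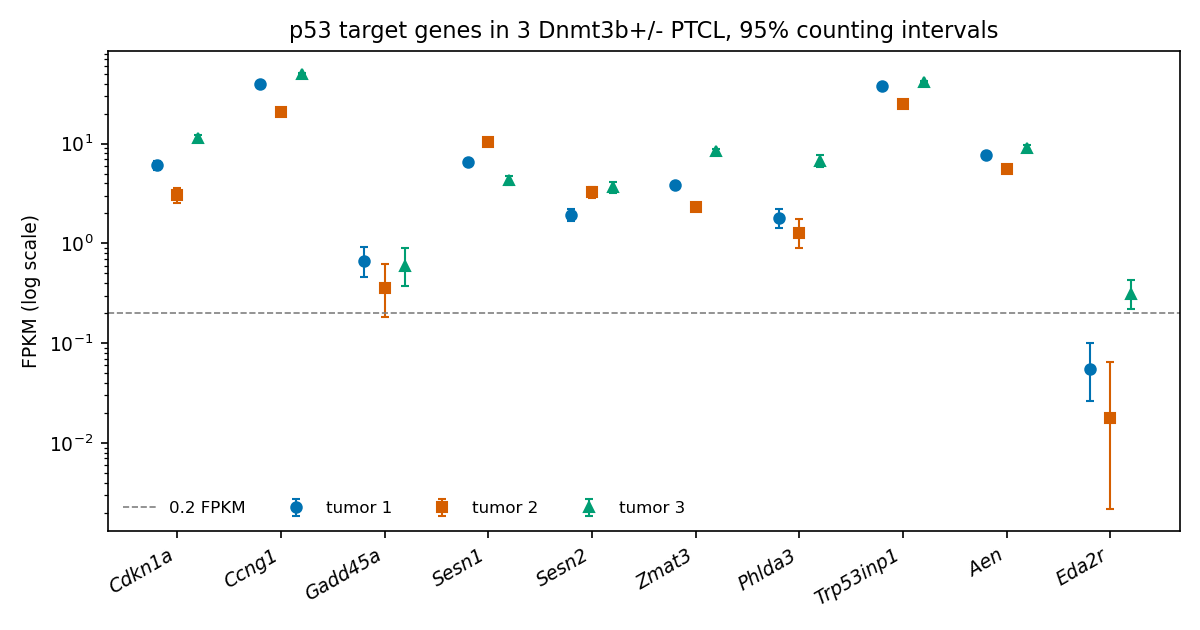
FPKM of the 10 p53 target genes on a log axis in each of the 3 Dnmt3b+/- PTCL, with bars for 95% counting intervals and a dashed line at 0.2 FPKM. Tumor 2 is the lowest of the 3 for 8 genes, Sesn1 is highest there, and Eda2r reaches the line only in tumor 3.

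Cdkn1a (ENSMUSG00000023067) encodes p21, which binds and inhibits cyclin-dependent kinases and also binds the replication clamp PCNA. In mm10 the gene covers chromosome 17 between 29090979 and 29100722. Its expression was 6.08, 3.04 and 11.3 FPKM in tumors 1, 2 and 3. All 3 tumors differed beyond counting error, with the highest level in tumor 3 and the lowest in tumor 2. The ratio of tumor 3 to tumor 2 was 3.72 (95% counting interval 3.06 to 4.55) and that of tumor 1 to tumor 2 was 2.00 (1.64 to 2.46). The annotated exon length of 3553 bases gave no whole reads for Cdkn1a. The shortest length between 0.5 and 2 times this value that did was 2223 bases, with 415, 128 and 521 reads. Longer lengths fitted as well and give more reads, so these intervals are the widest of those possible.

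Ccng1 (ENSMUSG00000020326) encodes cyclin G1, an atypical cyclin that recruits a protein phosphatase to Mdm2. It lies on chromosome 11 from 40748552 to 40755311. It was measured at 39.8, 20.8 and 49.9 FPKM in tumors 1, 2 and 3, with 4290, 1388 and 3641 reads behind these values. The order of the tumors was that of Cdkn1a, but the range was smaller. Tumor 3 had 2.40 times the level of tumor 2 (95% counting interval 2.25 to 2.55) and 1.26 times that of tumor 1 (1.20 to 1.31). Ccng1 and Cdkn1a, which hold the closest p53 sites in the windows shown above, are the most and the fifth most abundant of the 10 genes.

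Gadd45a (ENSMUSG00000036390), a stress sensor that binds PCNA and the kinases CDK1 and MAP3K4, lies on chromosome 6 from 67035096 to 67037457. It had 0.664, 0.359 and 0.60 FPKM in tumors 1, 2 and 3. These levels rest on 36, 12 and 22 reads. No difference between tumors was detectable at this depth, since the ratio of tumor 1 to tumor 2 of 1.85 had a 95% counting interval of 0.942 to 3.91. Its closest match to the p53 site, at chr6:67037632-67037651 on the minus strand, had 3 mismatches and began 244 bases before the start.
Gadd45a: AAACTACCTAGAGCTGGCTC

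The sestrins Sesn1 and Sesn2 restrain mTORC1 through the GATOR2 complex, and Sesn2 is also induced by the stress factor ATF4. Sesn1 (ENSMUSG00000038332) lies on chromosome 10 from 41809935 to 41908424. Its levels were 6.51, 10.3 and 4.32 FPKM in tumors 1, 2 and 3. Sesn1 was the only one of the 10 genes that was highest in tumor 2 and lowest in tumor 3, the reverse of Cdkn1a. The level in tumor 2 was 2.38 times that in tumor 3 (95% counting interval 2.10 to 2.71, from 776 and 357 reads). Its closest match to the p53 site, at chr10:41887266-41887285 on the plus strand and upstream of the downstream one of its 2 starts, had 3 mismatches.
Sesn1: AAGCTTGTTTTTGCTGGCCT

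Sesn2 (ENSMUSG00000028893), on chromosome 4 between 132492032 and 132510501, was measured at 1.92, 3.25 and 3.64 FPKM in tumors 1, 2 and 3. Tumor 1 was the lowest, and tumors 2 and 3 did not differ beyond counting error, with a ratio of tumor 3 to tumor 2 of 1.12 (95% counting interval 0.934 to 1.35). Sesn1 was higher than Sesn2 in every tumor, by 3.39, 3.16 and 1.18 times. Of 7 ATF4 targets, the most abundant, Atf4 itself, had 30.8, 47.5 and 30.6 FPKM, and Ddit3 had 4.84, 23.7 and 9.86 FPKM in tumors 1, 2 and 3. Psat1 had 13.8, 8.04 and 8.86 FPKM and Trib3 0.597, 1.61 and 0.498 FPKM, and 3 of the 6 with a mean of at least 0.1 FPKM were highest in tumor 2, against 39% of all such genes.

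Zmat3 (ENSMUSG00000027663) encodes a zinc finger protein that binds RNA, and it lies on chromosome 3 from 32334792 to 32366014. Its expression was 3.85, 2.30 and 8.46 FPKM in tumors 1, 2 and 3, on the basis of 1351, 499 and 2009 reads. Tumor 3 stood above both others, at 3.68 times tumor 2 (95% counting interval 3.33 to 4.06) and 2.20 times tumor 1 (2.05 to 2.36). Without tumor 3 the mean of 4.87 ± 3.20 FPKM (SD, n = 3) was 3.07 FPKM.

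Phlda3 (ENSMUSG00000041801) encodes a small protein that competes with AKT for membrane lipids, and it lies on chromosome 1 from 135766119 to 135769136. It had 1.80, 1.28 and 6.67 FPKM in tumors 1, 2 and 3, where 86, 38 and 216 reads were counted. Tumor 3 held 68.4% of the level summed over the tumors, and its ratio to tumor 2 was 5.19 (95% counting interval 3.66 to 7.54). Tumors 1 and 2 could not be separated at this depth, with a ratio of 1.40 (0.943 to 2.10). The mean of 3.25 ± 2.97 FPKM (SD, n = 3) was 1.54 FPKM without tumor 3. Among genes of its binding partners, Akt1 had 29.9, 29.4 and 24.8 FPKM and Akt2 16.7, 14.6 and 14.2 FPKM in tumors 1, 2 and 3. Among the partners of the sestrins, Sec13 had 15.5, 12.2 and 15.2 FPKM and Seh1l 15.5, 9.34 and 10.3 FPKM.

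The remaining 3 genes are known for cell death. Trp53inp1 (ENSMUSG00000028211), a stress-induced protein that promotes p53 phosphorylation and autophagy, lies on chromosome 4 from 11156431 to 11174379. Its levels were 37.8, 25.2 and 41.6 FPKM in tumors 1, 2 and 3. It was lowest in tumor 2, and tumor 3 had 1.65 times that level (95% counting interval 1.58 to 1.73). Tumors 1 and 3 differed by 1.10 times, and this order turned when FPKM were rescaled to sum to 1000000, where tumor 3 had 0.927 times the level of tumor 1.

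Aen (ENSMUSG00000030609) encodes a nuclease that enhances apoptosis, and it lies on chromosome 7 from 78895854 to 78911209. It had 7.76, 5.59 and 9.07 FPKM in tumors 1, 2 and 3, and 1383, 615 and 1093 reads. Aen had the smallest ratio of highest to lowest tumor of the 10 genes. Its ratio of tumor 3 to tumor 2 was 1.62 (95% counting interval 1.47 to 1.79). That of Trp53inp1, 1.65 (1.58 to 1.73), was within this interval. Without tumor 2, Trp53inp1 with 1.10 and Gadd45a with 1.11 had smaller ratios than Aen with 1.17. The ratio of tumor 3 to tumor 1 of Aen was 1.17, and it was 0.986 with FPKM rescaled to sum to 1000000. A match to the p53 site with 3 mismatches, at chr7:78895937-78895956 on the plus strand, began 10 bases after the upstream one of its 2 starts.
Aen: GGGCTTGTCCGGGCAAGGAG

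Eda2r (ENSMUSG00000034457) encodes a member of the TNF receptor family whose ligand is a product of Eda, and it lies on chromosome X from 97333840 to 97377216. Its expression was 0.0552, 0.0179 and 0.311 FPKM in tumors 1, 2 and 3. These values rest on 10, 2 and 38 reads, so only tumor 3 was clearly covered. The ratio of tumor 3 to tumor 2 was 17.4, with a 95% counting interval of 4.48 to 148, and tumors 1 and 2 could not be separated. Without tumor 3 the mean of Eda2r was 0.0366 FPKM. The gene of its ligand, Eda, had 6, 0 and 1 reads in tumors 1, 2 and 3, and was chosen for mention after these values had been seen.

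Across the 10 genes, 6 had a highest tumor of at least 2 times the lowest, against 44.1% of 17005 genes with a mean of at least 0.1 FPKM. This filter was set after the data had been seen, and all 10 genes pass it. Eda2r passes it only through tumor 3, with a mean of 0.0366 FPKM without that tumor, and is counted here. The counts were 10 genes against 72.9% of all at 1.5 times and 4 genes against 27.5% at 3 times, and at 2 times the count is near the share of all genes. The count at 2 times was 3 without tumor 2 and 2 without tumor 3. Leaving out a tumor can only keep or lower a ratio, and no share of all genes was computed for it. The median ratio of highest to lowest tumor was 2.39 for the 10 genes and 1.83 for the 17005 genes. The 6 genes were Eda2r, Phlda3, Cdkn1a, Zmat3, Ccng1 and Sesn1.

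The direction of these differences was shared by most of the 10 genes. Tumor 2 was the lowest for 8 of the 10, against 33.5% of the 17005 genes, and tumor 3 the highest for 8, against 14.1%, a count of 6 against 8.48% with FPKM rescaled to sum to 1000000 and of 9 against 22.1% with median-of-ratios factors. Both held at once, with tumor 1 between, for 7 of the 10 genes and for 7.61% of all, where tumors 1 and 2 could not be separated for Phlda3 and Eda2r at their depth. Those 7 were Cdkn1a, Ccng1, Zmat3, Phlda3, Trp53inp1, Aen and Eda2r. Eda2r passes the mean of at least 0.1 FPKM only through tumor 3, so that filter fixed its place as highest there. Gadd45a was highest in tumor 1 as deposited and in tumor 3 with median-of-ratios factors. Sesn1 was highest in tumor 2 and Sesn2 lowest in tumor 1 on each of the 3 scales. With FPKM rescaled to sum to 1000000 this order held for 5 of the 10 and for 4.66% of all genes, since Trp53inp1 and Aen were then highest in tumor 1. With median-of-ratios factors it held for 8 and for 11.7% of all genes, since Gadd45a was then highest in tumor 3. The rescaling moved the log2 ratio of tumor 3 to tumor 1 of every gene by -0.25 and the factors moved it by 0.23. As deposited, the median log2 ratio of tumor 3 to tumor 2 was 1.00 for the 10 genes and -0.13 for the 17005 genes. That of tumor 3 to tumor 1 was 0.61 and -0.27. The medians of the 10 genes include Eda2r.

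**Figure D2:**
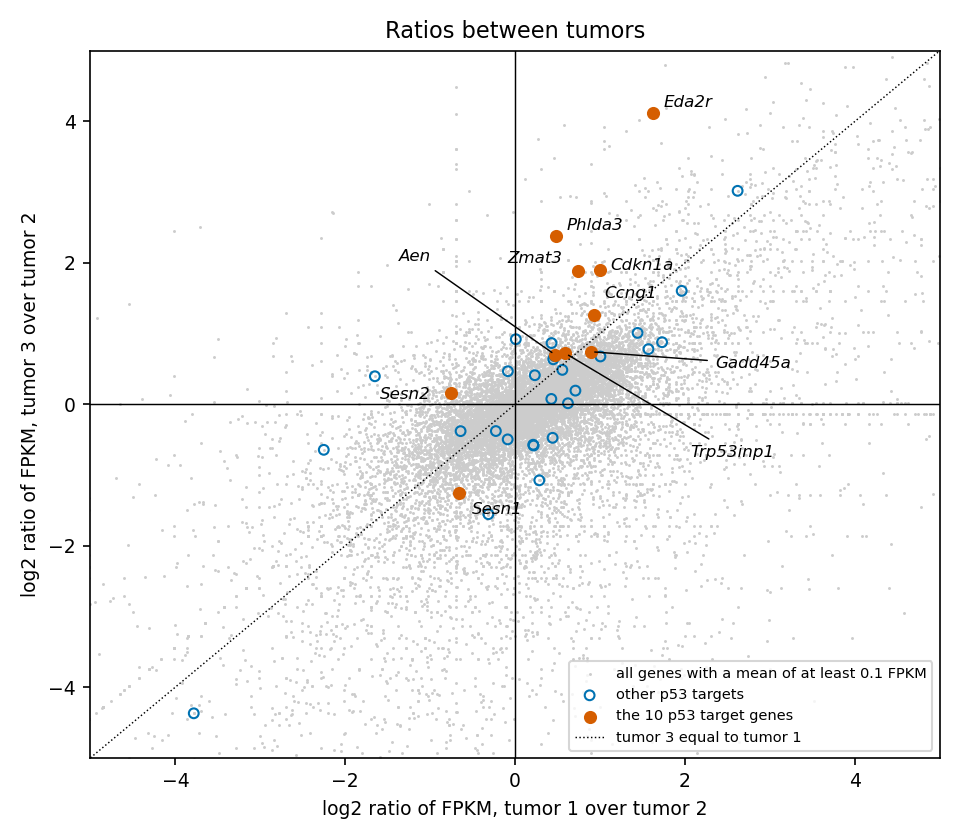
Log2 ratio of FPKM of tumor 3 over tumor 2 against that of tumor 1 over tumor 2, for the 10 p53 target genes (filled), 27 other p53 targets (open circles) and 17005 genes with a mean of at least 0.1 FPKM (grey), of which 561 lie outside the axes. The 7 genes in the order tumor 3, 1, 2 lie above the dotted line and to the right of 0, where Trp53inp1 and Aen fall below the line with FPKM rescaled to sum to 1000000, and Sesn1 lies below 0 on both axes.

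The genes whose levels over the 3 tumors were most like those of Cdkn1a were found by the root mean square distance of log2(FPKM) centred on its mean, among 9710 other genes with at least 1 FPKM in every tumor. They were Ier3 with a distance of 0.04, Eci1 with 0.06 and Nccrp1 with 0.07. Ier3 had 7.86, 4.19 and 15.0 FPKM, Eci1 3.79, 1.74 and 6.44 FPKM, and Nccrp1 7.53, 3.37 and 13.7 FPKM in tumors 1, 2 and 3. Of the 10 genes, Zmat3 ranked 5 with a distance of 0.12, Ccng1 ranked 35 with 0.28, and Phlda3 ranked 131 with 0.41. Trp53inp1 ranked 314 with 0.48, Aen 330 with 0.49 and Sesn2 4727 with 0.82. Gadd45a and Eda2r were below 1 FPKM and were not compared. Sesn1 was at the far end, with a distance of 1.28 and rank 9093. With 3 tumors such distances are a description only.

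Paralogs show how the 10 genes stand within their families. Of the CIP/KIP inhibitors, Cdkn1b, which encodes p27, had 32.7, 19.0 and 27.2 FPKM in tumors 1, 2 and 3. Cdkn1a made up 15.6, 13.7 and 29.3% of the summed FPKM of the family, and Cdkn1c stayed at 0.129 FPKM or less. Ccng1 was above its paralog Ccng2, which had 6.11, 6.12 and 4.37 FPKM, by 6.50, 3.40 and 11.4 times, and Ccni had 34.5, 27.4 and 25.1 FPKM. Sesn3 had 6.84, 9.98 and 10.1 FPKM, so that Sesn1 was close to it in tumors 1 and 2 and at 0.427 times its level in tumor 3.

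Gadd45a was the least abundant member of its family in every tumor. Gadd45b had 6.90, 12.6 and 6.91 FPKM and Gadd45g 22.8, 2.83 and 5.95 FPKM, and Gadd45a made up 2.19, 2.27 and 4.46% of the sum. Trp53inp1 made up at least 96.3% of the sum with Trp53inp2, which had 1.14, 0.963 and 0.256 FPKM. Phlda3 was above Phlda1, with 0.369, 0.789 and 0.109 FPKM, in each tumor, and Phlda2 had no read in any tumor. Aen was accompanied by Isg20, with 8.91, 38.9 and 5.69 FPKM, and Isg20l2, with 18.4, 10.1 and 13.6 FPKM. Zmat3 was below Zmat2, with 27.2, 19.9 and 30.5 FPKM, and Zmat5, with 7.95, 10.2 and 12.3 FPKM, and above Zmat1, with 1.03, 2.11 and 1.63 FPKM, while Zmat4 had 2, 0 and 0 reads. Edar, the relative of Eda2r, had no read in any tumor, and Tnfrsf19 had 77, 0 and 1 reads.

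**Figure D3:**
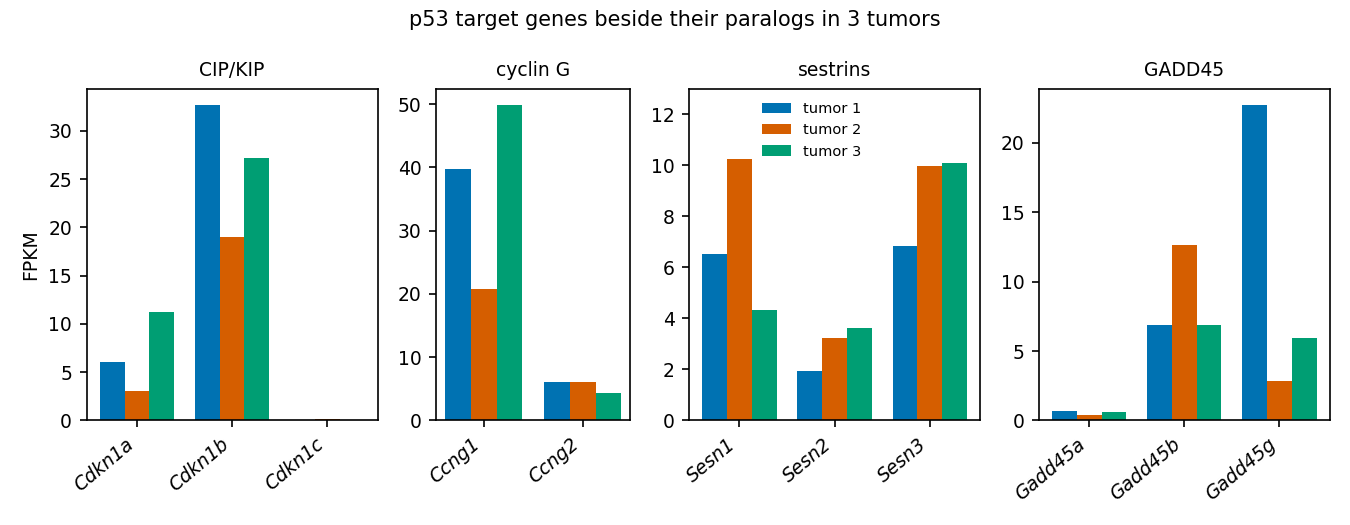
FPKM of Cdkn1a, Ccng1, Sesn1, Sesn2 and Gadd45a beside their paralogs, as 1 bar for each of the 3 Dnmt3b+/- PTCL on linear axes that start at 0. Gadd45a is the lowest bar of its family in each tumor, and Ccng1 is above Ccng2 in each tumor.

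Other p53 targets had several orders of tumors. Of 27 such genes, 25 were above 0.2 FPKM in every tumor, against 36.7% of all 34199 gene symbols. Gdf15 and Perp, named after their values were seen, were not. A highest tumor of at least 2 times the lowest was found for 11 of the 27, near the 44.1% of all genes. That count was 6 without tumor 1 and 4 without tumor 2, with no share of all genes to compare. The order of tumors 3, 1 and 2 held for 6 of the 27, against 7.61% of all genes and 7 of the 10 genes above, and with FPKM rescaled to sum to 1000000 it no longer held for Ei24, Ppm1d and Rchy1, named for this reason, while it then held for Btg2. With median-of-ratios factors it no longer held for Bax and then held for Rrm2b.

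Of 11 targets for arrest and metabolism, Ddit4 had 24.5, 117 and 74.6 FPKM, Rps27l 75.0, 19.3 and 58.5 FPKM and Btg2 38.7, 41.0 and 56.8 FPKM in tumors 1, 2 and 3. Psrc1 had 2.31, 0.376 and 3.05 FPKM, and 5 of the 11 were highest in tumor 1, near the 47% of the 17005 genes. Of 4 repair genes, 3 were lowest in tumor 2, against 33.5% of all genes, with Ddb2 at 19.2, 14.3 and 15.0 FPKM, Rrm2b at 4.03, 2.74 and 3.84 FPKM and Polk at 3.53, 1.30 and 2.62 FPKM, while Xpc had 4.97, 7.75 and 5.96 FPKM. Ddb2 could not be separated between tumors 2 and 3, with a ratio of tumor 3 to tumor 2 of 1.05 (95% counting interval 0.954 to 1.16), and was lowest in tumor 3 with FPKM rescaled to sum to 1000000.

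Of 9 cell death genes, 6 were lowest in tumor 2, against 33.5% of all genes, and 5 with median-of-ratios factors, against 32.5%. Bax, which permeabilises mitochondria, had 29.9, 29.7 and 56.2 FPKM, with tumors 1 and 2 not separable (ratio 1.01, 95% counting interval 0.925 to 1.09), Bbc3, which encodes PUMA, had 3.49, 11 and 14.4 FPKM, and Fas had 16.0, 4.83 and 8.88 FPKM in tumors 1, 2 and 3. Of the 3 feedback genes, Mdm2, which encodes the main ubiquitin ligase of p53, had 12.0, 7.82 and 7.90 FPKM, Ppm1d 3.65, 2.67 and 4.16 FPKM and Rchy1 8.96, 7.63 and 10.1 FPKM. All 3 were lowest in tumor 2, where Mdm2 could not be separated from tumor 3 (ratio 1.01, 95% counting interval 0.914 to 1.12) and was lowest in tumor 3 with FPKM rescaled to sum to 1000000.

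Trp53, which encodes p53, had 29.4, 22.2 and 26.4 FPKM in tumors 1, 2 and 3, a range of 1.32 times, while Cdkn1a ranged over 3.72 times. Mdm4 had 20.9, 14.3 and 15.2 FPKM, Atm 10.1, 8.56 and 8.70 FPKM and Jdp2 1.14, 4.22 and 0.247 FPKM. Cdkn2a, whose product Arf inhibits Mdm2, had 7.22, 0.0900 and 9.08 FPKM, from 260, 2 and 221 reads, and was named after its values were seen. These values are for the whole gene, and transcripts that encode Arf were not measured apart. The ratio of tumor 3 to tumor 2 of Cdkn2a was 101 (95% counting interval 27.6 to 839), and Cdkn2a was in the order of tumors that Cdkn1a had. A link between Cdkn2a and the 10 genes was not tested.

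Cell cycle genes that p53 and p21 repress lay in another order than Cdkn1a. All 10 of them were lowest in tumor 3, where Cdkn1a was highest, under the deposited scale and both other scalings, against 38.8% of the 17005 genes and 1 of the 10 p53 target genes. Mki67 had 38.7, 30.4 and 12.0 FPKM, Top2a 42.8, 17.3 and 11.8 FPKM, Ccnb2 20.6, 14.2 and 8.68 FPKM and Birc5 21.5, 5.67 and 4.0 FPKM in tumors 1, 2 and 3. Tumor 2, with the lowest Cdkn1a, was between the others for all 10, except that Plk1 and Cdc20, named for this reason, were highest in tumor 2 with median-of-ratios factors. Of 12 kinases, cyclins and PCNA that p21 binds, 7 were lowest in tumor 3, against 38.8% of the 17005 genes. Pcna had 88.0, 55.9 and 63.6 FPKM. Ccnd2 had 32.4, 25.4 and 52.4 FPKM, Cdk4 35.0, 28.7 and 33.3 FPKM, Ccnb1 7.81, 2.81 and 1.76 FPKM and Ccne2 6.03, 1.45 and 2.84 FPKM. A relation between Cdkn1a and these genes was not tested over 3 tumors.

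B-cell markers had the order of tumors that 7 of the 10 genes had as deposited. All 5 of 5 B-cell markers were highest in tumor 3 and lowest in tumor 2 on each of the 3 scales, and none was without a read. That order held for 7.61% of the 17005 genes as deposited, 4.66% after the rescaling and 11.7% under median-of-ratios factors. The 5 B-cell markers summed to 56.2, 13.7 and 104 FPKM in tumors 1, 2 and 3, and the most abundant, Cd79a, had 23.1, 7.31 and 49.0 FPKM. The part of B cells in the levels of Cdkn1a, Ccng1, Zmat3, Phlda3, Trp53inp1, Aen and Eda2r was not tested. The 3 plasma cell markers summed to 826, 188 and 205 FPKM, with Jchain at 814, 185 and 179 FPKM. The other 2 plasma cell markers, named after their values were seen, had the order of Cdkn1a, with Mzb1 at 11, 2.62 and 25.8 FPKM and Sdc1 at 0.957, 0.595 and 1.09 FPKM, where Sdc1 was highest in tumor 1 with FPKM rescaled to sum to 1000000. Their part in the levels of the 10 genes was not tested. The 7 macrophage markers were each lowest in tumor 3, against 38.8% of the 17005 genes. They summed to 432, 146 and 36.3 FPKM, with Lyz2 at 215, 33.1 and 20.3 FPKM. The part of macrophages in the levels of the 10 genes was not tested.

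The summed levels of the other lists were lowest in tumor 3 or tumor 2. Sums in tumors 1, 2 and 3 were 35.9, 1.35 and 14.8 FPKM for 5 neutrophil markers, led by S100a9 with 22.6, 1.01 and 10.4 FPKM and with Elane without a read. They were 13.6, 12.8 and 5.13 FPKM for 4 endothelial markers, led by Pecam1 with 12.2, 10.9 and 4.86 FPKM. The 5 epithelial markers summed to 14.2, 2.78 and 0.937 FPKM, led by Cdh1 with 13.7, 0.934 and 0.410 FPKM and with Krt19 without a read. Cdh1 set this sum in tumor 1 only, and in tumor 2 it was below Epcam. Epcam with 0.415, 1.14 and 0.307 FPKM, Krt18 with 0.116, 0.565 and 0.172 FPKM and Krt8 were highest in tumor 2, 3 genes chosen with their levels known. The 3 adipocyte markers summed to 0.638, 4.76 and 0.105 FPKM, led by Fabp4 with 0.536, 2.22 and 0.0643 FPKM, and the 3 erythroid markers to 2.94, 0.583 and 0.335 FPKM, led by Alas2 with 2.90, 0.526 and 0.280 FPKM. Col1a1, the most abundant fibroblast marker, had 1.63, 15.5 and 0.315 FPKM, and Ctrb1, the most abundant acinar marker, had 33.9 and 198 FPKM in tumors 1 and 2 and no read in tumor 3. Sesn1, highest in tumor 2 as the acinar and fibroblast sums were, had 6.51 FPKM in tumor 1 and 4.32 FPKM in tumor 3, and the part of those cells in its level was not tested.

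**Figure D4:**
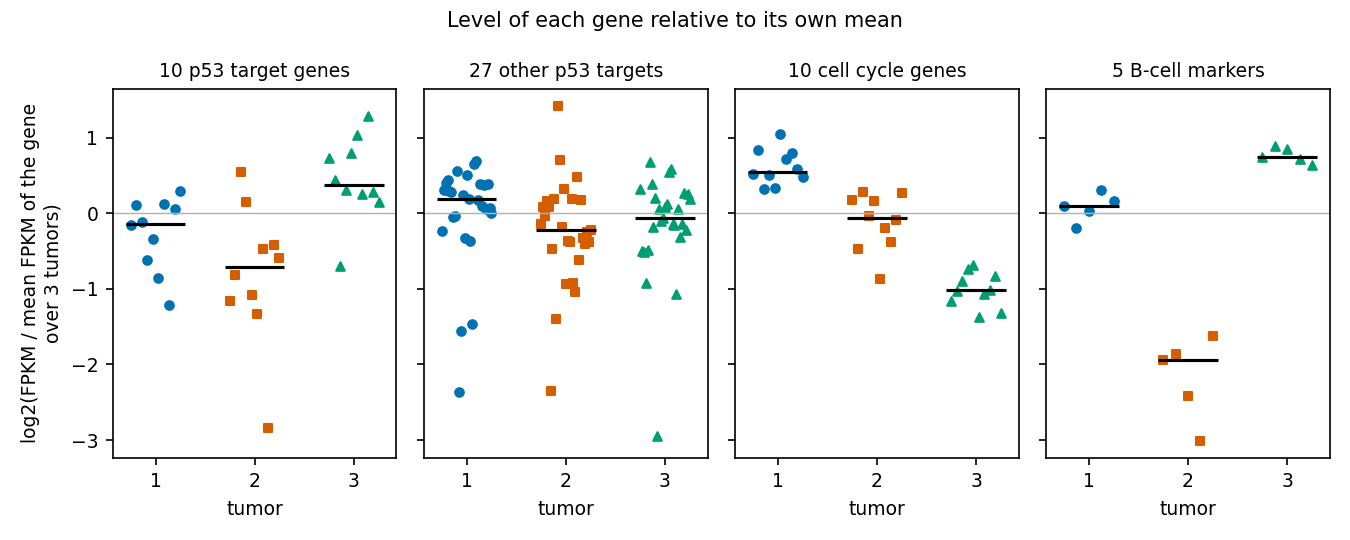
Log2 of FPKM over the gene's own mean of 3 tumors, with 1 point for each gene and a bar for the median, in the 10 p53 target genes, 27 other p53 targets, 10 cell cycle genes and 5 B-cell markers. The medians of the 10 p53 target genes are -0.14, -0.71 and 0.37 in tumors 1, 2 and 3, those of the 27 other p53 targets 0.19, -0.22 and -0.06, those of the B-cell markers 0.09, -1.95 and 0.74, and those of the cell cycle genes 0.55, -0.06 and -1.02.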

How the data were processed

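RNA was isolated from 3 independent Dnmt3b+/- PTCL and sequenced with paired-end reads. The authors used STAR for alignment to mm10 and the RNA-seq pipeline of SeqMonk for quantification, in versions not given in the sources used here. The authors deposited linear FPKM, with a column for each tumor. A count model was not used on such values, and 1 group allowed no test.

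Of 34245 genes, 26 names turned into dates were restored from their identifiers, which gave 34199 symbols, and the gene with the highest mean was used for a repeated symbol. Where no read was counted, the table has the FPKM that 0.9 read would give, and the depth follows from this. Multiplied by depth and by the merged exon length of GENCODE M21, found for 34125 genes, FPKM gave whole reads to within 0.01 read, or no read, for 91.8% of these genes in tumor 1, 91.8% in tumor 2 and 91.9% in tumor 3. Genes without whole reads have no interval, other than Cdkn1a. The 95% intervals are exact Poisson intervals for a level and exact conditional binomial intervals for a ratio. They compare libraries, not conditions, and reads are not independent molecules. Whether counting used strand is not given in the sources used here, so reads of overlapping antisense genes cannot be told apart.

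The 10 genes and all gene lists were chosen with earlier results of these data known. Named genes are the 10 genes, their listed paralogs, Trp53, Mdm2 and Mdm4, the 3 most abundant and the 2 with the largest ratio of highest to lowest tumor above 0.2 FPKM in every tumor in each other list, the most abundant marker of each cell type and the 3 genes most like Cdkn1a. Of the binding partners, only the genes named in the text were reported, with no count over their list. Other genes were named after their values were seen.

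Alternatives were median-of-ratios factors, a rescaling of each tumor to a total of 1000000 FPKM, each tumor left out, repeated symbols summed, thresholds of 0.1 and 1 FPKM, ratios of 1.5 and 3 times, and a pseudocount of 0.1 FPKM. The counts by order of tumors and by lowest tumor, the mean of at least 0.1 FPKM, the limits on mismatches and the length of Cdkn1a were chosen after seeing the data. For Cdkn1a, lengths of 4446 and 6669 bases also gave whole reads. Recovery of depth and reads, the order of tumors, the ratio of 2 times and the ratio interval were tested on simulated data. Other steps, such as the motif search, were not. Values were computed in Python 3.11 with SciPy 1.17.1, NumPy 2.4.6 and pandas 2.3.3, and drawn with matplotlib 3.10.9.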

Additional observations from a re-analysis of the deposited data

How the results depend on the processing

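No paired analysis was possible because there was only 1 group. With ratios of 1.5 times, 10 of the 10 p53 target genes and 21 of the 27 other targets passed, and with 3 times 4 and 6 passed, against 72.9% and 27.5% of all genes. The number of the 10 genes highest in tumor 1 was 3 after rescaling each tumor to a total of 1000000 FPKM and 0 with median-of-ratios factors, since these scalings move the log2 ratio of tumor 3 to tumor 1 of every gene by -0.25 and 0.23. Leaving out a tumor can only keep or lower the ratio of highest to lowest tumor, and no share of all genes was computed for it. With each tumor left out in turn, 2 to 6 of the 10 genes and 4 to 9 of the 27 others reached 2 times. The genes highest in tumor 1 were then 2 to 8, and those highest in tumor 2 were 1 to 2, where a left-out tumor gives no such count. The counts above 0.2 FPKM in every tumor of the 10 genes and of the 27 others, and the number of the 10 genes highest in tumor 3, stayed within 1.5 times under the alternatives run for them. With genes above 0.2 FPKM in every tumor in place of a mean of at least 0.1 FPKM, a choice made after seeing the data, the shares of all genes were 35.1% for the ratio, 8.24% for the order of tumors 3, 1 and 2, 15.7% for highest in tumor 3 and 37.6% for lowest in tumor 2. The rescaled mean of each of the 10 genes is on another scale and is not compared. Few reads limit Eda2r and Gadd45a.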
